A study of Homo sapiens with 7 samples.

Results

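The genes described here encode the oxidative phosphorylation machinery of mitochondria, complexes I to V of the inner membrane. They were the rows of 3 single-cell count tables whose symbols begin as MT-ND, MT-CO, MT-ATP, MT-CYB, NDUFA, NDUFB, NDUFC, NDUFS, NDUFV, UQCR, COX4 to COX8 or ATP5, or read SDHA, SDHB, SDHC or SDHD. COX6A1, COX6A2, COX7A1, COX7A2 and antisense genes were left out. The rule found 106 of the 27981 genes listed in any table, of which 13 lie in the mitochondrial genome and 93 in the nucleus. The day 11 table listed all 106, and 105 were listed with CHIR and with DMSO, without COX7B2. The 93 nuclear members comprise 37 subunits of complex I, 4 of complex II, 8 of complex III, 15 of complex IV and 17 of complex V. The others are 8 complex I assembly factors of the NDUFAF family, the ATP synthase inhibitor ATP5IF1, the gene copies UQCRHL and ATP5MGL, and the noncoding RNA NDUFA6-DT. NDUFA4 and NDUFA4L2 carry complex I names but were counted with complex IV, where the NDUFA4 protein resides.

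Complexes I to IV pass electrons from nutrients to oxygen, and complexes I, III and IV pump protons. Complex V, the ATP synthase, uses the proton gradient to make ATP. The mitochondrial genome encodes core membrane subunits of complexes I, III, IV and V, none of complex II, and all remaining subunits are imported after translation from nuclear transcripts. Heart muscle relies on this machinery for most of its ATP, and its mitochondrial content grows as cardiomyocytes mature.

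The cells were cardiac cells differentiated from the human embryonic stem cell line H1, which is long established, and each group was 1 library. The first group was collected at day 15 with CHIR. This name usually stands for CHIR99021, a small molecule that blocks the kinase GSK3 and so switches on canonical Wnt signalling. The second was collected at day 15 with the vehicle DMSO, and the third at day 11, for which no treatment is labelled. The labels give neither the dose of CHIR nor when it was added, and the protocol text of the day 11 library names day 15. Cells were dissociated enzymatically and sorted live by DAPI exclusion before droplet capture, so every level refers to cells that survived these steps.

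The CHIR table held 81076689 unique molecular identifiers (UMIs) in 5607 cells, that of DMSO 65675862 in 4015 cells and that of day 11 75906387 in 5683 cells. The median cell had 12687 UMIs in the CHIR, 15250 in the DMSO and 12689 in the day 11 library. Pairs of libraries shared between 3 and 6 cell barcodes. Cells were clustered on genes other than the 106 members, and clusters were named from marker genes of each cell type. Cardiomyocyte-like (CM-like) cells numbered 1311 in the CHIR, 1670 in the DMSO and 3427 in the day 11 library. The 14 cardiomyocyte markers summed to 23751 CPM (UMIs of a gene scaled to a common total per class of cells) in CM-like cells of the CHIR library, 45119 in those of DMSO and 41331 at day 11. All 11 mesenchymal markers together gave 2112, 1359 and 1358 CPM in the same cells, and 0 of the 11 were at 0 in any of the libraries. The CHIR cells of this class came from clusters 20 (1169 cells) and 18 (142), the DMSO cells mostly from clusters 4 (1495) and 18 (162), and the day 11 cells mostly from clusters 0 and 1, so the class was largely made of different clusters in each library. As each group is a single library, the differences below lack any check against replicates. Ratios are given with exact conditional binomial 95% intervals in parentheses, which cover counting error only. A member is called higher or lower past 1.5-fold in either direction, and that share among all measured genes is given as background.

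Promoters show what nuclear members share outside their counts. RefSeq promoters (GRCh38.p14, from 250 bases before to 50 bases after a transcript start, the first one listed for a gene) were matched for 77 of the 93 nuclear members. In 71 of the 77 that start is the outer end of the annotated gene, and in 6 it lies elsewhere. The palindrome bound by nuclear respiratory factor 1 (NRF1), an activator of many respiratory chain genes, was searched as the 10 letters of the first run of capitals in the SDHD promoter printed here. It was in 5 of the 77 (6.49%), against 371 of 27305 promoters (1.36%). The letters CCGGAAG or their reverse complement CTTCCGG, a core bound by ETS factors such as GABP (also called NRF-2), were in 20 of 77 (26.0%), against 10.7% of all promoters. These windows do not test binding, and the median GC content was 61.0% in members and 58.3% overall. SDHD (chr11:112086623-112086922, plus strand) and COX5B (chr2:97645812-97646111, plus strand) are shown because both held matches, in capitals (the NRF1 palindrome and an ETS core in SDHD, ETS cores in COX5B), and both were among the members lowest with CHIR. Each is printed along its gene's strand.
SDHD: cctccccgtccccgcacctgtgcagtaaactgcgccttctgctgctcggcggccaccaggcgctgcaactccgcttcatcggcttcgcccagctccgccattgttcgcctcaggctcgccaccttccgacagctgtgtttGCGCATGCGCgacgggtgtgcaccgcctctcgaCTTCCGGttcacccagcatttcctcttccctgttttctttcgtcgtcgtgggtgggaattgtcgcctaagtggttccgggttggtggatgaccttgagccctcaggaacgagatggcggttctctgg
COX5B: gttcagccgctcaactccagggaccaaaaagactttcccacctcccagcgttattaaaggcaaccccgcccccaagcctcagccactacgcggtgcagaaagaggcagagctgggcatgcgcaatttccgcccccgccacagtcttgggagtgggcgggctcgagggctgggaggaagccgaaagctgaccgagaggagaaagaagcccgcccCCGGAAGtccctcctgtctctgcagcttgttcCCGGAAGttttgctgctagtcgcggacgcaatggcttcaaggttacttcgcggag

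Mitochondrial and nuclear transcripts of the respiratory chain stood in different proportion in the 3 libraries. In CM-like cells the 13 mitochondrial members took 5.76% of UMIs with CHIR (5.746 to 5.77), 5.44% with DMSO (5.43 to 5.45) and 3.45% at day 11 (3.44 to 3.45). The nuclear members took 3.62% (3.61 to 3.62), 4.93% (4.92 to 4.94) and 3.79% (3.78 to 3.79) in the same order. Mitochondrial UMIs per nuclear UMI were thus 1.59 (1.59 to 1.60) with CHIR, 1.10 (1.10 to 1.11) with DMSO and 0.911 (0.909 to 0.913) at day 11. The mitochondrial sum was lowest at day 11, the nuclear sum was highest with DMSO, and of these sums the nuclear one was lower with CHIR than with DMSO.

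The same order held outside muscle. Cells that were neither CM-like nor mixed in their markers had 1.99 mitochondrial UMIs per nuclear UMI with CHIR, 0.901 with DMSO and 0.576 at day 11. Among clusters with at least 20 cells in a library, the ratio ranged from 1.59 to 2.18 over 10 clusters with CHIR, from 0.601 to 1.18 over 9 with DMSO and from 0.409 to 1.13 over 10 at day 11. Every CHIR cluster was above every cluster of the other libraries. Clusters that CHIR and DMSO cells shared gave the same direction. The CM-like cluster 18, led by cell cycle genes, stood at 1.65 in 142 CHIR cells and 1.18 in 162 DMSO cells. Cluster 13, with endothelial markers, stood at 1.64 in 44 CHIR cells and 0.668 in 20 DMSO cells, and cluster 7, with endoderm markers, at 2.05 in 23 and 0.614 in 49. Cluster 10, led by GABRP and CLDN4 and left unnamed, stood at 1.96 in 59 CHIR cells and 0.601 in 56 DMSO cells. These clusters were thus alike in direction whatever their cell type, with 1 library behind each treatment.

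**Figure D1:**
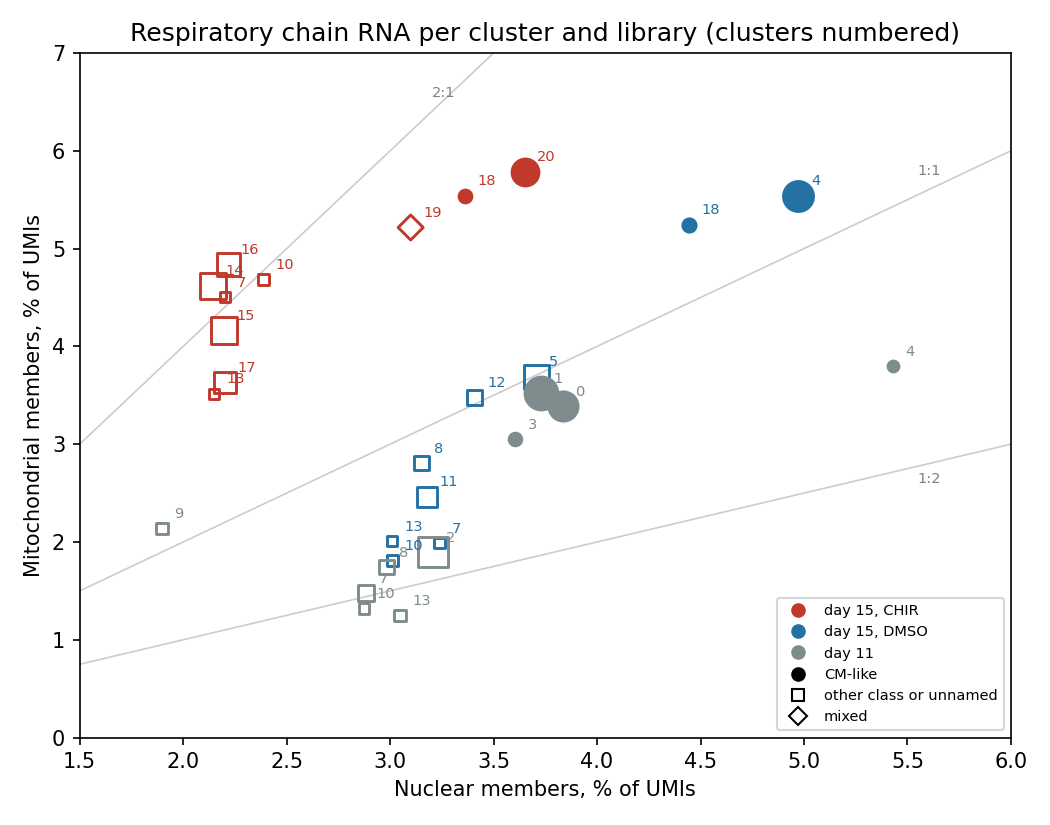
Share of UMIs taken by the 13 mitochondrial members (y axis, %) against the share taken by the nuclear members (x axis, %), for each cluster with at least 20 cells in a library. Colours are libraries, filled circles CM-like clusters, open squares other clusters, the diamond the mixed cluster, symbol size grows with cell number, and grey lines mark 2, 1 and 0.5 mitochondrial UMIs per nuclear UMI. All 10 CHIR points lie at a ratio of 1.59 or above, and no DMSO or day 11 point lies above 1.18.

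Single cells varied widely around these sums. The interquartile range of the mitochondrial share over CM-like cells lay between 4.24% and 6.97% of UMIs with CHIR, between 3.78% and 7.66% with DMSO and between 2.33% and 4.40% at day 11. The nuclear share was tighter, between 3.22% and 3.95% with CHIR, between 4.25% and 5.33% with DMSO and between 3.07% and 4.35% at day 11. The mitochondrial distributions of CHIR and DMSO cells overlapped over most of their middle range, while the interquartile ranges of the nuclear shares did not meet. Across CM-like cells, Spearman's rho between the mitochondrial and the nuclear share was -0.20 over 1311 CHIR cells, -0.33 over 1670 DMSO cells and -0.01 over 3427 day 11 cells, where both shares of a cell have the same UMI total as denominator. A mitochondrial share above 10% was found in 9.08% of CM-like cells of the CHIR library, 12.6% with DMSO and 0.788% at day 11. The mitochondrial share was higher in cells of fewer UMIs, with a rho of -0.23, -0.52 and -0.24 in that order, and the part of cell quality in these shares was not tested. Ribosomal protein genes took 30.2% of UMIs in CM-like cells of the CHIR library, 22.3% with DMSO and 12.3% at day 11, and these UMIs are part of the total by which CPM are scaled. As a share of UMIs outside mitochondrial and ribosomal protein genes, nuclear members were at 5.65%, 6.82% and 4.49%, and mitochondrial members at 8.99%, 7.53% and 4.09%. On this scale the mitochondrial order of the libraries was the same, while nuclear members were lowest at day 11 in place of CHIR.

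CHIR was set against DMSO at day 15 in CM-like cells, where the series title places the question of how Wnt signalling directs atrioventricular canal muscle. Nuclear members were mostly lower with CHIR and mitochondrial members mostly higher. Of the 91 nuclear members with at least 20 UMIs over both libraries, 34 were at least 1.5-fold lower and 3 at least 1.5-fold higher, and the summed ratio was 0.734 (0.731 to 0.736). Over all 15516 measured genes 25.9% were as much lower and 20.0% as much higher. The median log2 ratio of nuclear members was -0.45, beside -0.02 for all genes, and 76 of the 91 ratios were below 1. Members are short genes, and among the 41 in the shortest of 5 equal length classes the median log2 ratio was -0.52, beside -0.30 for all genes of that class. Of all genes in that class 36.8% were lower and 14.2% higher. The 34 lower and 3 higher of 91 members cover all lengths, since that class held 41 of the 87 with a length. The other classes, by rising length, held 26, 11, 5 and 4 members, with medians of -0.59, -0.32, -0.19 and -0.16. All genes of those classes had medians of -0.05, 0.05, 0.12 and 0.15. The part of gene length in these ratios was not tested. Of the 13 mitochondrial members, 7 were higher and 1 was lower, with a summed ratio of 1.06 (1.05 to 1.06). CPM scaled by totals without mitochondrial and ribosomal protein genes gave 20 nuclear members lower. At a coarser clustering no CM-like cells were found in the CHIR library, so the class itself rests on the clustering chosen.

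**Figure D2:**
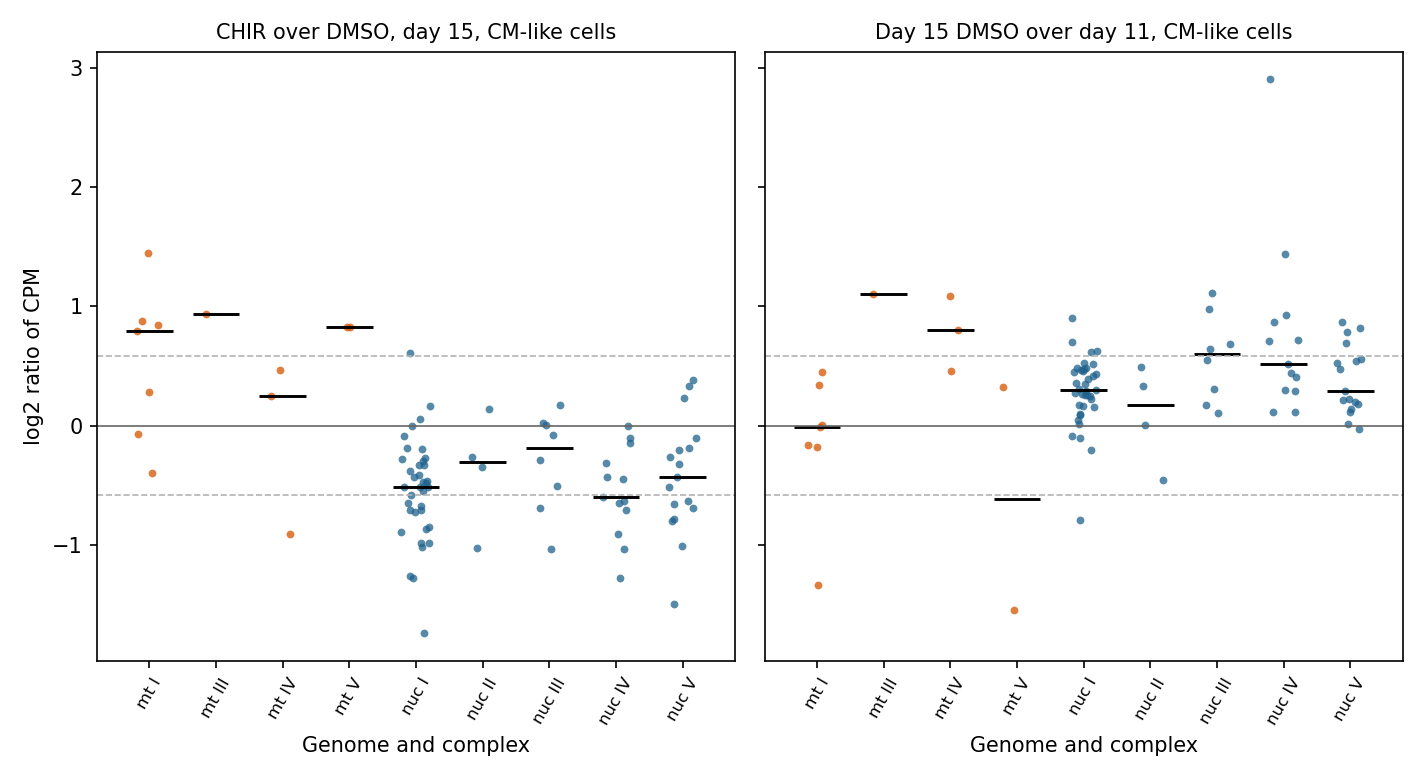
Each point is 1 member's log2 ratio of CPM in CM-like cells, CHIR over DMSO on the left and day 15 DMSO over day 11 on the right, in columns by genome (mt, mitochondrial; nuc, nuclear subunits) and complex. Black bars are medians and dashed lines mark 1.5-fold. On the left the medians of all 5 nuclear columns lie below 0 and those of all 4 mitochondrial columns above 0, while on the right the nuclear medians lie above 0.

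Complex I, the NADH dehydrogenase that feeds electrons into the chain, had 14 of 37 nuclear subunits lower and 1 higher with CHIR, and their sum was at a ratio of 0.673 (0.670 to 0.677). Counts by complex, here and below, stand beside the 25.9% lower and 20.0% higher of all genes. In the shortest length class these shares were 36.8% and 14.2%. NDUFA3, an accessory subunit of the membrane arm, was at 126 CPM with CHIR, 419.9 with DMSO and 224 at day 11, a CHIR to DMSO ratio of 0.299 (0.286 to 0.313) and the lowest of any member of at least 50 CPM. NDUFA1, another membrane arm subunit needed for assembly, was at 274 CPM with CHIR, 665 with DMSO and 507 at day 11, a ratio of 0.412 (0.399 to 0.425). NDUFB1 of the distal membrane arm was at 176 CPM with CHIR, 422 with DMSO and 303 at day 11, a ratio of 0.417 (0.4005 to 0.434). NDUFA3, NDUFA1 and NDUFB1 were thus each lowest in the CHIR library and highest in the DMSO library. The accessory subunits NDUFB4, NDUFB3, NDUFA7, NDUFC1, NDUFB11 and NDUFC2 followed, with ratios between 0.493 and 0.555.

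The redox core of complex I, which binds the flavin and the iron-sulfur clusters, was less uniform. Of its 7 nuclear subunits NDUFS8 (0.611 (0.588 to 0.634)) and NDUFV2 (0.636 (0.614 to 0.659)) were lower and NDUFS1 was higher. NDUFS1, which carries several of the iron-sulfur clusters, was at 75.02 CPM with CHIR, 49.3 with DMSO and 85.6 at day 11, a ratio of 1.52 (1.403 to 1.65). NDUFV1, which holds the NADH site, had a ratio of 0.938 (0.898 to 0.981) and NDUFS3 0.999 (0.953 to 1.05). The summed ratio was 0.763 (0.751 to 0.775) for these 7 core subunits, and 0.661 (0.657 to 0.665) for the 30 accessory ones, of which 12 were lower and 0 higher. This division into roles was made after the values were seen. Of the 8 NDUFAF assembly factors, 2 were lower and 1 higher. The exception was NDUFAF5, which modifies a core subunit during assembly and was singled out after its values were seen, at 26.0 CPM with CHIR, 11.1 with DMSO and 24.5 at day 11, a ratio of 2.35 (2.01 to 2.75).

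Complex II, succinate dehydrogenase, links the citric acid cycle to the chain and is wholly nuclear. SDHD, a membrane anchor, was at 48.2 CPM with CHIR, 98.4 with DMSO and 78.0 at day 11, a ratio of 0.490 (0.453 to 0.530). SDHA, the flavoprotein that oxidises succinate, was at 114 CPM with CHIR, 104 with DMSO and 142 at day 11, a ratio of 1.10 (1.04 to 1.17). The iron-sulfur subunit SDHB and the second anchor SDHC had ratios of 0.784 (0.719 to 0.854) and 0.835 (0.785 to 0.888). SDHA alone of the 4 stood above 1.

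Complex III, which passes electrons to cytochrome c, had 2 of 8 nuclear subunits lower. UQCRQ, a small subunit beside cytochrome b, was at 232 CPM with CHIR, 476 with DMSO and 219.9 at day 11, a ratio of 0.488 (0.471 to 0.505). UQCR11 had a ratio of 0.619 (0.603 to 0.634). UQCRH, the hinge protein at the cytochrome c docking side, was at 1570.4 CPM with CHIR, 1394 with DMSO and 950.3 at day 11, a ratio of 1.13 (1.11 to 1.14). UQCRHL, an intronless copy of UQCRH whose reads may be split with it, was at 11.5 CPM with CHIR and 7.46 CPM with DMSO, and its ratio of 1.54 (1.25 to 1.90) is uncertain for that reason.

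Complex IV, cytochrome c oxidase, had 7 of 13 measured nuclear subunits lower and 0 higher, and all 13 ratios were below 1. The 7 include the scarce COX4I2 and COX8C, the latter at 0.794 CPM with CHIR and 1.92 CPM with DMSO. COX5B, a structural subunit on the matrix side, was at 683 CPM with CHIR, 1284 with DMSO and 1052 at day 11, a ratio of 0.532 (0.521 to 0.543). COX6C (0.613 (0.5996 to 0.626)), COX5A (0.639 (0.628 to 0.651)), COX6B1 (0.644 (0.632 to 0.656)) and COX7B (0.660 (0.646 to 0.673)) were also lower. COX7C was level, at 1833 CPM with CHIR and 1834 CPM with DMSO, a ratio of 0.999 (0.985 to 1.01). COX4I1, the common form of the regulatory subunit 4, had a ratio of 0.905 (0.889 to 0.920), and its oxygen-responsive alternative COX4I2 was scarce, at 1.54 CPM with CHIR and 3.14 CPM with DMSO. NDUFA4 had a ratio of 0.740 (0.728 to 0.753), COX8A 0.805 (0.785 to 0.826) and COX7A2L, which links complexes III and IV into supercomplexes, 0.733 (0.702 to 0.765).

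Complex V had 7 of 17 nuclear subunits lower and 0 higher. ATP5ME, subunit e of the membrane part, where the enzyme forms dimers, was at 331 CPM with CHIR, 933 with DMSO and 530.0 at day 11, a ratio of 0.354 (0.344 to 0.365). ATP5F1B, the catalytic beta subunit of the F1 head, was at 1089 CPM with CHIR, 837 with DMSO and 684 at day 11, a ratio of 1.30 (1.28 to 1.33). ATP5F1A, the alpha subunit, had a ratio of 1.17 (1.14 to 1.20). The F1 head as a whole was at 0.901 (0.892 to 0.909), while the 9 nuclear subunits outside the head and the c ring were at 0.662 (0.657 to 0.668), with 5 lower. Like that of complex I, this division was made after the values were seen. The genes of the c ring, the proton-driven rotor, differed from each other. ATP5MC2 was at 852 CPM with CHIR, 1715 with DMSO and 1176 at day 11, a ratio of 0.496 (0.487 to 0.506). ATP5MC1 was at 659 CPM with CHIR, 522 with DMSO and 460.5 at day 11, a ratio of 1.26 (1.23 to 1.29). ATP5MC3 was at 1373 CPM with CHIR, 1653 with DMSO and 1641 at day 11, a ratio of 0.831 (0.818 to 0.845). ATP5MC2 was thus lower and ATP5MC1 higher in the CHIR library than in the DMSO library, although both genes give the same mature protein. ATP5IF1, which blocks ATP hydrolysis by the enzyme, was at 443 CPM with CHIR and 773 CPM with DMSO, a ratio of 0.573 (0.558 to 0.588).

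The mitochondrial members did not all stand on the same side. MT-CO1, the catalytic subunit of cytochrome c oxidase, was at 11884 CPM with CHIR, 22312 with DMSO and 10512 at day 11, a ratio of 0.533 (0.530 to 0.535). It was the only mitochondrial member at least 1.5-fold lower with CHIR, and it made up 20.6% of mitochondrial UMIs in CM-like cells of the CHIR library, 41.0% with DMSO and 30.5% at day 11. MT-CO2 and MT-CO3, which complete the core of the oxidase, had ratios of 1.19 (1.18 to 1.20) and 1.38 (1.37 to 1.39). The transcripts of the 3 oxidase subunits of 1 genome were therefore in different proportion in the libraries, with MT-CO1 low and MT-CO3 high relative to DMSO.

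MT-ND5, a proton-pumping subunit of complex I, was at 1512 CPM with CHIR, 554 with DMSO and 619.9 at day 11, a ratio of 2.73 (2.67 to 2.79). MT-ND1 and MT-ND2 were at 1.73 (1.71 to 1.75) and 1.83 (1.81 to 1.86), and MT-ND3 at 1.79 (1.77 to 1.81). MT-ND4, at 5772 CPM with CHIR, 6073 with DMSO and 4811 at day 11, was near level, with a ratio of 0.950 (0.943 to 0.958). MT-CYB, cytochrome b of complex III, was at 5216 CPM with CHIR, 2728 with DMSO and 1271 at day 11, a ratio of 1.91 (1.89 to 1.93). MT-ATP6, the proton channel subunit of complex V, was at 4404 CPM with CHIR, 2479.8 with DMSO and 1987 at day 11, a ratio of 1.78 (1.76 to 1.80). The CHIR library held the highest level of MT-ND5, MT-CYB and MT-ATP6, and the DMSO library was between the others only for MT-CYB and MT-ATP6. MT-ATP8 (ratio 1.77 (1.52 to 2.07)) and MT-ND4L (0.759 (0.723 to 0.798)) overlap MT-ATP6 and MT-ND4 on shared transcripts, and MT-ND6 (1.21 (1.15 to 1.28)) lies on the other strand. How reads were assigned to overlapping genes or to nuclear copies of mitochondrial genes is stated by no source used here, so these 3 values are uncertain.

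**Figure D3:**
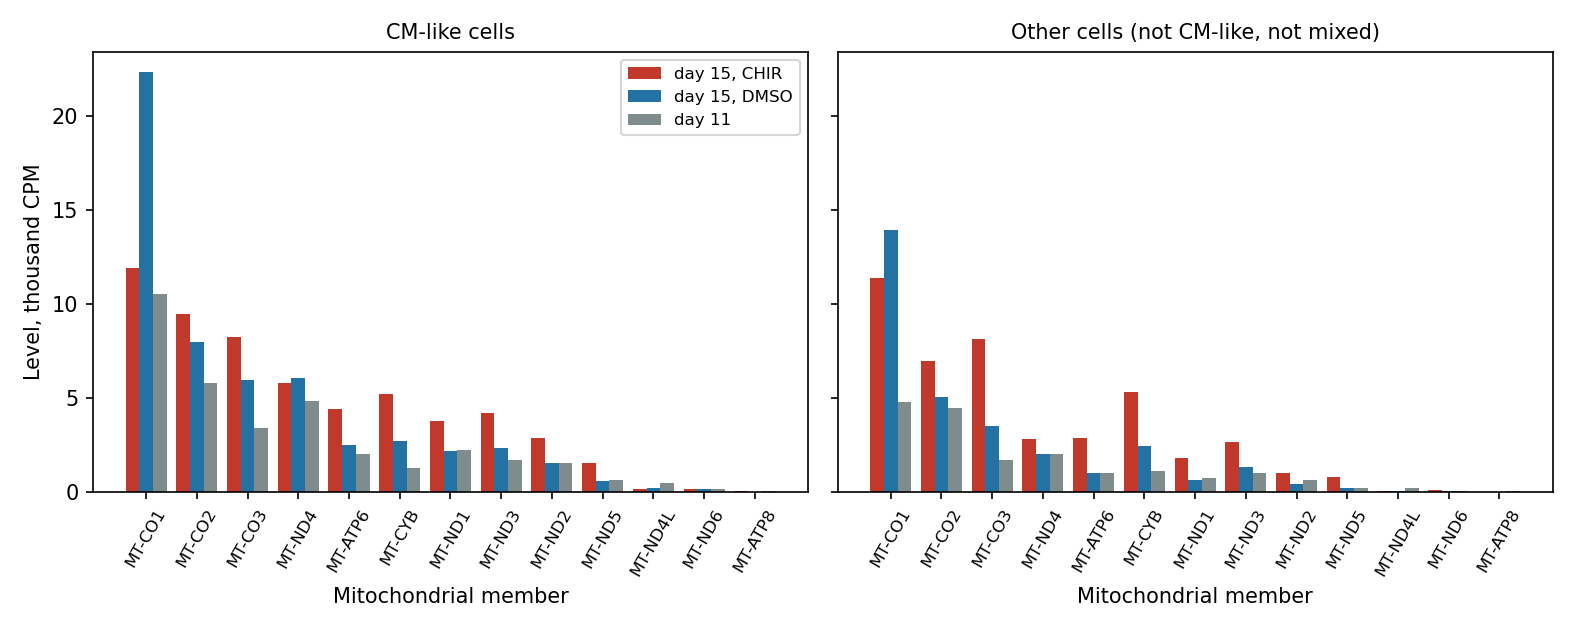
Level of each mitochondrial member (y axis, in units of 1000 CPM) in CM-like cells (left) and in cells neither CM-like nor mixed (right), with bars for CHIR, DMSO and day 11, 1 library each. MT-CO1 is highest with DMSO in both panels, whereas MT-CYB, MT-ATP6, MT-CO3, MT-ND3, MT-ND2 and MT-ND5 are highest with CHIR in both.

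In cells with mesenchymal markers nuclear members were again mostly lower with CHIR, and mitochondrial ratios were larger. The comparison set 3753 CHIR cells, all but 2 from clusters 14 to 17, against 767 DMSO cells, from clusters 8 and 11, so no cluster was well represented in both. The cells also differed in other markers. The 6 smooth muscle markers summed to 519 CPM with CHIR and 3330 with DMSO, and the 7 epicardial ones to 629 and 1090. The part of cell type in these ratios was not tested. Of 92 nuclear members, 38 were lower and 3 higher, beside 20.7% lower and 38.6% higher of 16129 genes, and the summed ratio was 0.691 (0.689 to 0.694). In the shortest length class, with 42 of the 88 members with a length, 31.2% of all genes were lower and 25.6% higher. Of the 13 mitochondrial members 11 were higher and 0 lower, with a summed ratio of 1.70 (1.69 to 1.71). MT-ND5 was at 744 CPM with CHIR and 143 CPM with DMSO, a ratio of 5.21 (4.999 to 5.43). MT-CO1 was at 11487 CPM with CHIR and 11708 CPM with DMSO, a ratio of 0.981 (0.976 to 0.986), and was again the lowest of the 13. Of the members measured in both classes, 78 of 91 nuclear and 11 of 13 mitochondrial ones stood on the same side of 1 as in CM-like cells. Among those on opposite sides were ATP5MC1 (0.898 (0.859 to 0.939)), SDHA (0.933 (0.847 to 1.03)), MT-ND4 (1.67 (1.65 to 1.70)) and MT-ND4L (1.44 (1.32 to 1.57)) in mesenchymal-like cells, named after their values were seen. ATP5MC1 and SDHA were thus below 1 there and above 1 in CM-like cells, and MT-ND4 and MT-ND4L the reverse. NDUFA3 (0.244 (0.234 to 0.255)), ATP5ME (0.360 (0.349 to 0.371)) and SDHD (0.361 (0.336 to 0.388)) were the lowest nuclear members, so the lowest 2 were those of CM-like cells. Over whole libraries, where fewer cells of a type and less RNA per cell cannot be told apart, 42 of 92 nuclear members were lower and 2 higher (26.0% and 25.7% of 18672 genes), and 8 mitochondrial members were higher and 0 lower. Of all genes in the shortest length class there, 37.6% were lower and 17.4% higher.

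Day 15 with DMSO was then set against day 11 in CM-like cells. These values share the DMSO library with those above. Nuclear members were mostly higher at day 15, with 19 of 91 at least 1.5-fold higher and 4 lower, beside 8.69% higher and 52.9% lower of 17847 genes. Their median log2 ratio was 0.30, beside -0.65 for all genes, and their sum was at a ratio of 1.30 (1.30 to 1.31). The ratio was lower for longer genes (Spearman's rho -0.63 across 14861 genes, which are not independent replicates). The shortest of the 5 length classes, which held 41 of the 87 members with a length, had a median of 0.11 and the longest class -1.95, and the members of the shortest class had a median of 0.36. Of all genes in the shortest class 21.6% were higher and 18.1% lower, while the 19 higher and 4 lower of 91 members cover all lengths. The other classes, by rising length, held 26, 12, 4 and 4 members, with medians of 0.35, 0.04, 0.36 and -0.07. All genes of those classes had medians of -0.24, -0.59, -1.04 and -1.95. The day 11 library also listed more genes (26940, against 22469 with DMSO) at a lower median UMI count. Whether reads in introns were counted alike in both libraries is stated by no source used here, and the part of gene length in these ratios was not tested. Scaling with TMM factors, which moved the median of all genes to -0.09, gave 76 nuclear members higher and 2 lower, beside 25.1% higher and 33.6% lower of all genes. Over whole libraries 7 of 92 nuclear members were higher and 5 lower, beside 8.36% higher and 54.6% lower of 19957 genes, and 3 mitochondrial members were higher and 2 lower. The CHIR library, which enters the first comparison too, was also set against day 11 in CM-like cells. There 7 of 91 nuclear members were higher and 16 lower, beside 9.47% higher and 56.2% lower of 17766 genes, with a summed ratio of 0.955 (0.953 to 0.958), and 8 mitochondrial members were higher and 2 lower, with a summed ratio of 1.67 (1.67 to 1.67).

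UQCRQ was at 476 CPM with DMSO and 219.9 at day 11, a ratio of 2.16 (2.10 to 2.23) and the highest of the nuclear members of at least 50 CPM. UQCRB, a subunit near the ubiquinone sites of complex III, was at 715 CPM with DMSO and 363 at day 11, a ratio of 1.97 (1.93 to 2.02). NDUFA3 (1.87 (1.82 to 1.93)), ATP5MF (1.83 (1.79 to 1.87)), COX5A (1.82 (1.80 to 1.85)) and ATP5ME (1.76 (1.73 to 1.79)) followed. Further small subunits were past 1.5-fold, namely ATP5MD (1.72), COX7C (1.65), COX7B (1.64), NDUFA11 (1.62), ATP5MPL (1.61) and UQCR11 (1.61). By complex, 4 of 37 nuclear subunits were higher in complex I, 0 of 4 in complex II, 4 of 8 in complex III, 6 of 13 in complex IV and 4 of 17 in complex V. Among all genes 8.69% were higher, and among those of the shortest length class 21.6%. Counts this small do not rank the complexes. NDUFS1 was lower, at a ratio of 0.577 (0.538 to 0.618), and SDHA was at 0.730 (0.695 to 0.767) beside SDHC at 1.403 (1.33 to 1.48). NDUFA4L2, the counterpart of NDUFA4 that takes its place in low oxygen, was at 13.6 CPM with CHIR, 14.5 with DMSO and 1.94 at day 11, a DMSO to day 11 ratio of 7.48 (5.81 to 9.73).

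Mitochondrial members were split in this comparison. MT-CO1 had a DMSO to day 11 ratio of 2.12 (2.11 to 2.13), MT-CO3 1.74 (1.73 to 1.76) and MT-CYB 2.15 (2.12 to 2.17). The complex I genes MT-ND1 (0.989 (0.978 to 1.00)), MT-ND2 (1.00 (0.989 to 1.02)) and MT-ND5 (0.894 (0.874 to 0.914)) were near level, and MT-ND4L was lower at 0.396 (0.382 to 0.410). MT-ATP8, which was below the level of 50 CPM set for naming nuclear genes, was lower too, at 0.341 (0.299 to 0.389). MT-CO2 (1.38 (1.37 to 1.39)), MT-ND3 (1.37 (1.35 to 1.38)), MT-ND4 (1.26 (1.25 to 1.27)), MT-ATP6 (1.25 (1.23 to 1.26)) and MT-ND6 (0.881 (0.841 to 0.923)) were within 1.5-fold. The summed ratio was 1.58 (1.57 to 1.58).

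Within each library, CM-like cells were set against the cells that were neither CM-like nor mixed. Each ratio was taken within 1 library and each library gives 1 value, but the classes came from a clustering of all 3 libraries together. The mixed class left out here was cluster 19, with 417 CHIR cells, 0 DMSO cells and 0 day 11 cells, so leaving it out changed the CHIR library alone. Mitochondrial members were summed at a ratio of 1.32 with CHIR, 1.78 with DMSO and 1.92 at day 11, and nuclear members at 1.65, 1.45 and 1.22 in the same order. The mitochondrial excess of muscle was thus smallest, and the nuclear excess largest, in the CHIR library. The other cells differed in how much muscle RNA they held, since the 14 cardiomyocyte markers summed to 978 CPM in them in the CHIR library, 7638 in the DMSO and 10014 in the day 11 library. Without the unnamed clusters these sums were 966, 3101 and 4429.8 CPM, the mitochondrial ratios 1.32, 1.99 and 2.18 and the nuclear ratios 1.65, 1.53 and 1.28 in that order. The part of this muscle RNA in the order of the libraries was not tested. Ratios were above 1 in all 3 libraries for 12 of the 13 mitochondrial members and for 62 of 92 nuclear ones (67.4%), beside 38.1% of 15666 genes measured in all 3. A ratio of at least 1.5 in all 3 libraries was found for 9 mitochondrial members and for 13 nuclear ones (14.1%), beside 15.2% of all genes, so the nuclear share was near the background. Single libraries gave 49, 35 and 16 of 92 nuclear members higher in the CHIR, DMSO and day 11 libraries, beside 24.8%, 33.9% and 31.8% of all genes. Without the unnamed clusters the day 11 number was 30, beside 37.0% of all genes. Nuclear members at least 1.5-fold lower in muscle numbered 2, 1 and 2 in that order, beside 26.1%, 22.1% and 21.4% of all genes, and 0 mitochondrial members were. The muscle-specific COX6A2 and COX7A1 are outside the rule.

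The 7 mitochondrial complex I genes were higher in muscle in all 3 libraries, with summed ratios of 2.02 with CHIR, 2.78 with DMSO and 2.36 at day 11. MT-ND6 had muscle ratios of 2.17 with CHIR, 4.51 with DMSO and 4.43 at day 11. MT-ND2 had 2.87 with CHIR, 3.71 with DMSO and 2.40 at day 11. MT-CYB, in contrast, had 0.981 with CHIR, 1.12 with DMSO and 1.16 at day 11, and MT-CO1 had 1.04 with CHIR, 1.60 with DMSO and 2.20 at day 11. Genes of 1 genome thus differed in how far muscle exceeded other cells, with complex I genes high and cytochrome b near level in each library.

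The 13 nuclear members past 1.5-fold in all 3 libraries came from every complex. Their number was near the background (14.1%, beside 15.2% of all genes), so they are given as single genes only. SDHA, the catalytic subunit of complex II, had muscle ratios of 3.58 with CHIR, 2.85 with DMSO and 2.65 at day 11, beside 0.979 with CHIR, 0.720 with DMSO and 0.917 at day 11 for the anchor SDHC. ATP5F1B, the catalytic subunit of ATP synthase, had 2.49 with CHIR, 2.10 with DMSO and 2.30 at day 11, and ATP5F1A had 1.78 with CHIR, 1.77 with DMSO and 2.17 at day 11. UQCRC1, a core protein of complex III, had 2.27 with CHIR, 1.90 with DMSO and 2.07 at day 11. In complex I, NDUFS1 had 2.35 with CHIR, 1.76 with DMSO and 1.93 at day 11, and NDUFV1 had 1.85 with CHIR, 1.61 with DMSO and 1.62 at day 11. Both belong to the redox core, while of the 30 accessory subunits 12 were higher with CHIR, 6 with DMSO and 0 at day 11. In complex IV, COX7B had 3.07 with CHIR, 2.46 with DMSO and 1.79 at day 11, COX5B had 2.54 with CHIR, 1.99 with DMSO and 1.61 at day 11 and COX5A had 2.40 with CHIR, 2.16 with DMSO and 1.62 at day 11. COX8C, an isoform near the detection limit, was also past 1.5-fold in all 3, at fewer than 2 CPM in each muscle sum.

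The genes of the c subunit split by cell class too. ATP5MC1 had muscle ratios of 4.45 with CHIR, 2.85 with DMSO and 1.84 at day 11. ATP5MC3 had 2.46 with CHIR, 2.03 with DMSO and 1.56 at day 11, whereas ATP5MC2 had 0.831 with CHIR, 0.983 with DMSO and 0.821 at day 11. ATP5MC2 was therefore the one c subunit gene without a muscle excess, and also the one at least 1.5-fold lower with CHIR. COX6B2, a testis isoform of subunit 6B, stood at 0.424 CPM in muscle and 4.46 in other cells with CHIR, at 0.281 and 6.62 with DMSO, and at 0.0757 and 2.70 at day 11. It was lower in muscle in each library. COX7A2L had muscle ratios of 0.875 with CHIR, 0.848 with DMSO and 0.753 at day 11, and NDUFC2 had 0.924 with CHIR, 0.863 with DMSO and 0.695 at day 11. Both were lower in muscle than in other cells in each library, though only within 1.5-fold. COX7B2, the testis counterpart of COX7B, had a count only in the day 11 table and was too rare to measure.

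**Figure D4:**
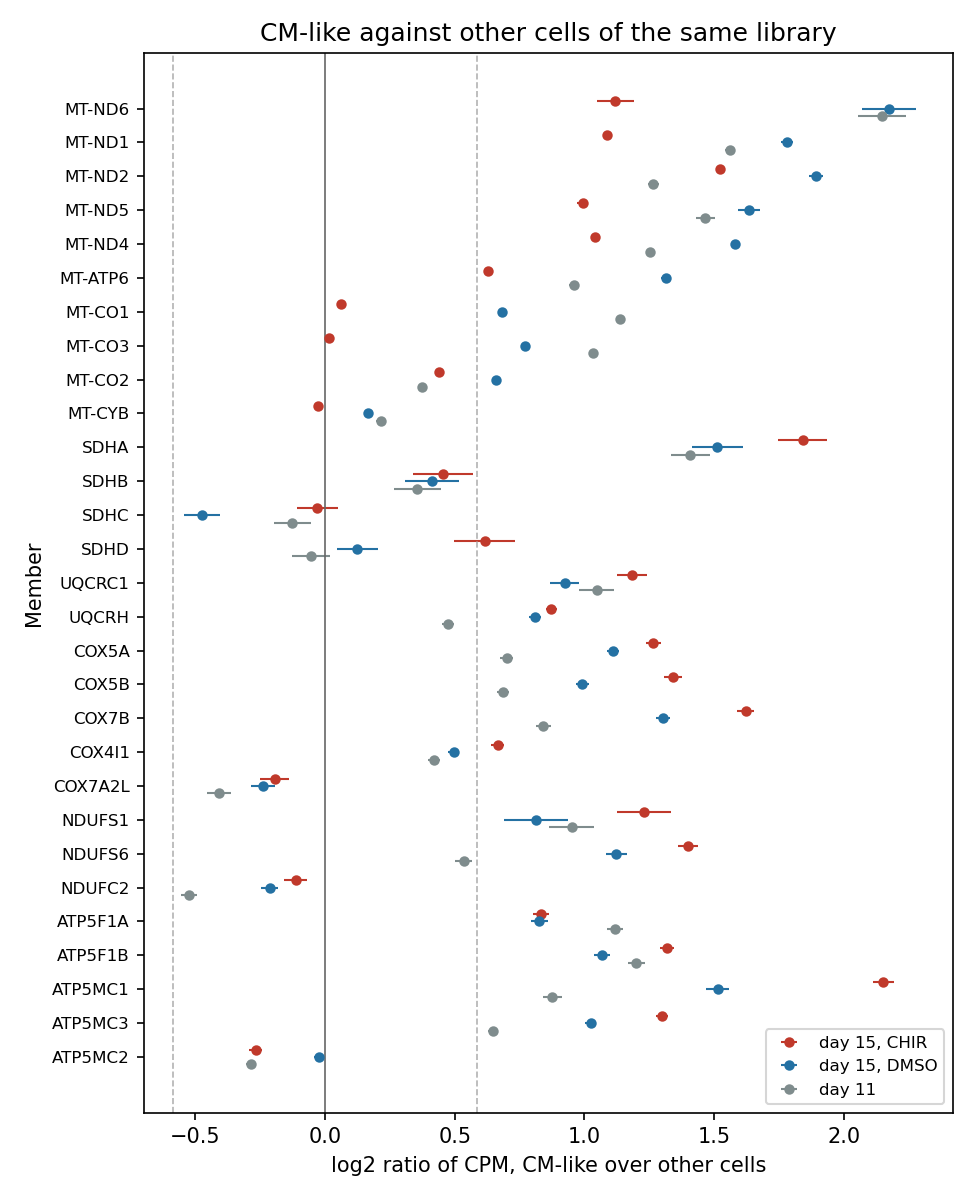
log2 ratio of CPM in CM-like cells over cells neither CM-like nor mixed (x axis) for selected members (y axis), with 1 point per library and lines for the exact 95% counting intervals. Dashed lines mark 1.5-fold. MT-ND6, MT-ND1 and MT-ND2 lie right of 1.5-fold in all 3 libraries, MT-CYB lies near 0, and ATP5MC1 and ATP5MC2 lie on opposite sides of 0.

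Other genes of the pathway were read from lists chosen by function, beside the 25.9% lower and 20.0% higher of all genes given above. Shares near these are no result about a list. In CM-like cells with CHIR against DMSO, 11 of 38 assembly factors of complexes II to V were lower and 5 higher, with a median log2 ratio of -0.34. PET100, a chaperone of complex IV assembly, was at 61.1 CPM with CHIR and 187 CPM with DMSO, and COX19, a copper-related factor for the same complex, at 75.3 CPM with CHIR and 30.9 CPM with DMSO. These gave ratios of 0.327 (0.306 to 0.3496) and 2.44 (2.22 to 2.68). Of 10 complex I assembly factors not named NDUFAF, 2 were higher and 0 lower. Of those of at least 50 CPM, DMAC2 was highest (1.41 (1.29 to 1.54)) and COA1 lowest (0.696 (0.664 to 0.730)). COA1 is also among the 38 factors of complexes II to V. Mitochondrial ribosomal proteins, which translate the 13 mitochondrial members, had 10 of 78 lower and 1 higher, with a median of -0.18. MRPL52 had a ratio of 0.494 (0.470 to 0.518) and MRPL47 1.80 (1.67 to 1.95).

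Of 21 measured genes for the replication, transcription and stability of mitochondrial nucleic acids, 3 were higher and 2 lower. LRPPRC, which stabilises mitochondrial mRNAs, was at 109 CPM with CHIR, 46.3 with DMSO and 107 at day 11, a CHIR to DMSO ratio of 2.35 (2.18 to 2.54). Its partner SLIRP was at 218 CPM with CHIR, 204 with DMSO and 114 at day 11, a ratio of 1.07 (1.02 to 1.12). TFAM, which packages mitochondrial DNA and starts its transcription, was at 56.5 CPM with CHIR, 49.9 with DMSO and 54.9 at day 11. It was thus close to level between the libraries, while LRPPRC was lowest with DMSO. Regulators of mitochondrial genes had 3 of 11 higher and 0 lower, and the nuclear receptor ESRRA was highest at a ratio of 2.28 (2.05 to 2.52), with YY1 at 0.954 (0.901 to 1.01). CYCS, cytochrome c, and CYC1, cytochrome c1 of complex III, lie outside the rule. CYCS was at 493 CPM with CHIR, 328 with DMSO and 179 at day 11 and CYC1 at 288 CPM with CHIR, 325 with DMSO and 193 at day 11, with CHIR to DMSO ratios of 1.501 (1.45 to 1.55) and 0.886 (0.855 to 0.918).

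The citric acid cycle had 3 of 13 genes higher and 0 lower, with citrate synthase (CS) at 107 CPM with CHIR, 54.9 with DMSO and 100.5 at day 11 and a CHIR to DMSO ratio of 1.95 (1.81 to 2.10). DLD, a shared dehydrogenase subunit, was at 0.715 (0.658 to 0.777). Of 20 import and chaperone genes 4 were higher and 1 lower. HSPA9, the chaperone that drives import into the matrix, had a ratio of 2.55 (2.40 to 2.71) and the translocase subunit TIMM17B 0.498 (0.473 to 0.524). Genes of reactive oxygen handling, fission and fusion had 3 of 10 higher and 2 lower, with the dismutase SOD2 at 1.37 (1.27 to 1.46) and the fission factor FIS1 at 0.536 (0.515 to 0.558). These lists went either way.

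With DMSO against day 11, 52.9% of all genes were lower and 8.69% higher, at a median log2 ratio of -0.65, and the counts of lower genes in the lists are near or below that share. Mitochondrial ribosomal proteins had 7 of 78 higher and 0 lower, MRPL23 highest (2.91 (2.71 to 3.12)) and MRPL19 lowest (0.685 (0.637 to 0.737)) of at least 50 CPM. Both carriers were higher, CYCS at 1.84 (1.78 to 1.90) and CYC1 at 1.69 (1.63 to 1.74). The regulators had 7 of 11 lower and 0 higher, with a median of -0.86. ESRRG, a nuclear receptor that activates mitochondrial genes in heart, was at 32.1 CPM with CHIR, 34.8 with DMSO and 401 at day 11, a ratio of 0.0867 (0.0805 to 0.0933). ESRRG was thus far lower in both day 15 libraries than at day 11, while the nuclear respiratory chain sum was higher with DMSO than at day 11. The mitochondrial DNA genes had 8 of 21 lower and 1 higher, with FASTKD1 at 0.335 (0.303 to 0.369) and SLIRP at 1.78 (1.71 to 1.86). The citric acid cycle had 5 of 13 lower and 0 higher, with a median of -0.22, OGDH at 0.305 (0.279 to 0.334) and SUCLG1 at 1.27 (1.22 to 1.32). Assembly factors of complexes II to V had 4 of 38 higher and 6 lower, COX16 at 1.77 (1.65 to 1.91) and UQCC1 at 0.403 (0.363 to 0.446), and the complex I factors 3 of 10 lower and 0 higher, DMAC1 at 1.37 (1.31 to 1.43) and NUBPL at 0.290 (0.261 to 0.322). Import genes had 2 of 20 higher and 2 lower, TOMM22 at 2.03 (1.93 to 2.14) and HSPA9 at 0.604 (0.570 to 0.640). Oxygen and dynamics genes had 4 of 10 lower and 0 higher, PRDX3 at 1.49 (1.43 to 1.55) and DNM1L at 0.543 (0.505 to 0.584). The gene length relation given above applies to these values too.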

How the data were processed

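Single-cell RNA was read in 3 libraries of H1-derived cardiac cells, each 1 sample. The authors deposited raw UMI counts, whole numbers for each gene in each cell, made with Cell Ranger 6.1.1 on GRCh38, per the submitters' processing notes; for the day 11 sample, R 4.1.0 and Seurat 4.3.0 are listed besides. No source used here states whether intronic reads were counted. The H3K27ac samples and peak list of the series were not used here.

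The cells had 1802 or more genes and at most 24.6% mitochondrial counts, and filters of 500 genes, 1000 UMIs and 25% mitochondrial counts removed 0. Scrublet, in scanpy 1.11.5, called 220 doublets with DMSO (5.48%), which were removed, but 1 at day 11 and 0 with CHIR. It had thus not worked in those libraries, so their doublets remain. This left 5607 CHIR, 3795 DMSO and 5683 day 11 cells. After scaling to 10000 counts per cell and a log transformation, 2000 variable genes less 12 members, 30 principal components and 15 neighbours gave Leiden clusters at resolution 0.6 (seed 1). A cluster was CM-like at a cardiomyocyte marker level of 0.35 without mesenchymal markers at 0.15, and mixed where both were present from 0.2 and 0.15. These levels are medians over markers, each divided by its value in its highest cluster. A cluster stayed unnamed where another type had more markers among its 10 leading genes, or where its cells were shallow (a median UMI count less than that of their library divided by 3) and none of its own type's markers led it. The second rule left cluster 9 (93 day 11 cells and 1 DMSO cell), with a cardiomyocyte level of 0.489, among the other cells.

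For each class of cells, a gene's raw UMIs were added up and expressed as CPM of all UMIs in those cells. Ratios cover genes with at least 20 UMIs over both libraries and carry exact conditional binomial 95% intervals. Log2 ratios had 0.5 added to each count. CPM from transcript ends are not per length, so levels were compared within genes. In simulated counts, 97.0% of doubled and 95.0% of halved genes were called for CHIR against DMSO, and 4.25% of unchanged genes. Intervals and shares cover counting error only.

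The members and lists were chosen with earlier results of these data known. Named genes were the 13 mitochondrial members, set isoforms, the highest and lowest of each complex and list, and members past 1.5-fold, at 50 CPM or more. The alternatives tried were other totals, TMM factors (edgeR 4.0.16), means over cells, other minimums, subunits only, doublets kept, other clusterings and thinning to 5000 UMIs per cell. The removal of the 6% of cells with the highest doublet scores and the other cells without unnamed clusters were chosen after seeing the data.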

Additional observations from a re-analysis of the deposited data

Results flagged for a closer look

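The muscle ratio of 2 scarce members pointed in opposite directions in different libraries, and none of these differences was tested, since each library gives 1 value. NDUFA4L2, the counterpart of NDUFA4 in low oxygen, stood at a ratio of 2.76 in CM-like against other cells with CHIR and 0.574 at day 11. With DMSO its ratio was 3.78, again beside 0.574 at day 11. NDUFA6-DT, a noncoding RNA beside NDUFA6, stood at 0.583 with CHIR and 1.505 at day 11, at levels of 1.22 and 5.10 CPM in the muscle cells.

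COX4I2, the oxygen-responsive form of subunit 4 of cytochrome c oxidase, had a CHIR to DMSO ratio of 0.489 in CM-like cells and 4.29 in mesenchymal-like cells. The second rests on 64 UMIs with CHIR and 5 with DMSO, with an interval of 1.75 to 13.7. This difference was not tested either.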

How the results depend on the processing

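No paired analysis was possible because each single-cell group had 1 library. Among the recomputed values, 165 were labelled the same. For log2 sums this meant a shift below a small fixed amount, and for counts a change of at most 1.5 times. Mitochondrial per nuclear ratios and median shares had to stay within a counting interval. The other 82 moved. A turn in direction was looked for only in log2 sums at least 1.5-fold in the main setting, and none of those turned. For the other values the labels cannot show a turn. At Leiden resolution 0.3 the CHIR library had 0 CM-like cells, so nothing could be recomputed there for CHIR against DMSO. The median log2 ratio of all genes moved to 0.15 with CHIR against DMSO in CM-like cells under totals without mitochondrial and ribosomal protein genes, and for DMSO against day 11 to -0.43 under those totals and -0.09 under TMM factors.

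In CM-like cells with CHIR against DMSO, the nuclear sum was at log2 -0.27 and the mitochondrial sum at 0.25 under totals without mitochondrial and ribosomal protein genes, with 20 nuclear members lower. The sums were at -0.40 and 0.13 with TMM factors, at -0.41 and 0.0063 as means over cells, at -0.42 and 0.13 with all deposited cells, and at -0.42 and 0.11 at resolution 1.0. With subunits only, 1 nuclear member was higher. In whole libraries these sums were at -0.38 and 0.49 under the other totals, -0.56 and 0.32 with TMM factors, and -0.64 and 0.12 as means over cells, where 1 nuclear member was higher and 1 mitochondrial member lower. The mitochondrial sum was at 0.32 with all cells kept. Nuclear members higher numbered 1 at a minimum of 200 UMIs and 0 with subunits only.

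In CM-like cells with DMSO against day 11, totals without mitochondrial and ribosomal protein genes gave 39 nuclear and 5 mitochondrial members higher and sums of 0.60 and 0.88. TMM factors gave 76 nuclear and 7 mitochondrial members higher, 2 nuclear lower and sums of 0.95 and 1.23. Means over cells gave 0.37 and 0.78, all deposited cells 0.37 and 0.62. The mitochondrial sum was 0.67 at resolution 0.3 and 0.65 at 1.0. With subunits only, 1 nuclear member was lower. In whole libraries the other totals gave 22 nuclear members higher and sums of 0.39 and 0.76. TMM factors gave 70 nuclear higher, 1 lower, 7 mitochondrial higher and sums of 0.83 and 1.20. Means over cells gave 11 nuclear higher and sums of 0.23 and 0.66, all cells a mitochondrial sum of 0.54, and subunits only 2 nuclear lower.

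Mitochondrial per nuclear UMIs in the CM-like cells of the CHIR, DMSO and day 11 libraries were 1.73, 1.30 and 0.976 as means over cells, 1.63, 1.14 and 0.9403 with subunits only, and 1.58, 1.08 and 0.907 with all deposited cells. The DMSO value was 1.12 at resolution 0.3 and 1.10 at 1.0, and the day 11 value was 0.915 without the 6% highest doublet scores. In whole libraries they were 1.91, 1.13 and 0.840 as means over cells, 1.87, 1.02 and 0.793 with subunits only, and 0.972 with DMSO when all cells were kept. Thinned to 5000 UMIs per cell, the median mitochondrial share of CM-like cells was 5.08% with DMSO and 3.24% at day 11, and in whole libraries 4.56% with CHIR, 3.64% with DMSO and 2.48% at day 11, leaving out 26, 68 and 158 shallower cells. For CM-like against other cells without the unnamed clusters, the nuclear and mitochondrial sums were at log2 0.61 and 0.99 with DMSO, where 2 nuclear members were lower, and at 0.36 and 1.13 at day 11, where 30 nuclear members were higher. Members under about 20 UMIs cannot be placed at this depth.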

Other observations

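A cluster of 13 DMSO cells (cluster 6), CM-like by its markers and led by CRYAB, FABP3 and MYL7, had 0.637% mitochondrial UMIs (0.608 to 0.667, exact binomial 95% interval) and 6.01% nuclear respiratory chain UMIs (5.93 to 6.1001). These cells were not shallow, with a median of 20358 UMIs. The CM-like DMSO cells as a whole had 5.44% and 4.93%.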
